A study of Homo sapiens with 6 samples.

Results

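The genes described here are nucleolar ribosome biogenesis factors, the proteins that process ribosomal RNA and assemble it with ribosomal proteins. They were chosen as a list of 57 gene symbols, sorted here by role, and 53 of them were read by at least 1 probe set with a single gene symbol in the array annotation, out of 18132 genes measured. PWP2, EBNA1BP2, DDX18 and GNL3 are not analysed here. Expression arrays were made from A375, a human melanoma line, in which a lentivirus carried an shRNA to UBE2S (knockdown, 3 arrays), and from control A375 cells (3 arrays). The labels call the arrays of each group biological replicates of 1 cell line. What the control cells received, how long the hairpin acted and how many hairpins were used were not stated in the sources used here. UBE2S is an enzyme that adds further ubiquitins to proteins marked by the anaphase-promoting complex. The comparison asks how the transcripts of these factors differ between UBE2S knockdown and control cells.

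Ribosomes are built in the nucleolus, where RNA polymerase I transcribes a long precursor of the 18S, 5.8S and 28S ribosomal RNAs. The small-subunit processome folds and cuts the 18S part, small nucleolar ribonucleoproteins (snoRNPs) guide methylation and pseudouridylation of the RNA, and a separate set of assembly factors and GTPases matures the large subunit. The transcription factor MYC, which binds the E-box CACGTG, is known to activate many of these genes in growing cells.

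The deposited values are log2 expression with each probe set centred on the median of the 6 arrays. They give differences between arrays and no level. Apart from a coarse signal class read from the rounding of the values, levels cannot be compared between genes. Unless stated otherwise a gene is the mean of its probe sets, a difference is knockdown minus control on the log2 scale, and a gene is called lower or higher where limma's test, adjusted by Benjamini-Hochberg over all 18132 genes, gave an adjusted p under 0.05. In bulk samples, fewer cells of a type and less RNA per cell cannot be told apart. The arrays read transcripts, and neither proteins nor ribosome assembly were measured.

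UBE2S stood at -1.13, -1.05 and -1.01 in knockdown arrays, against 1.06, 1.01 and 1.01 in control arrays. The groups were far apart, with a difference of -2.09 (SE 0.04, limma adjusted p = 9.23e-08). Its only probe set is of the _s_at kind, which the array design marks as shared. Of 9 measured melanoma and melanocyte markers, 4 (CSPG4, MIA, S100B and SOX10) had a probe set in the brightest of 3 signal classes that can be read from the rounding of the values, against 0 of 7 blood cell markers and 0 of 6 fibroblast and endothelial markers. MITF, MLANA, PMEL, TYR and TYRP1 had none there. The class is no detection call. Of the melanoma markers 1 was called lower and 4 higher in knockdown cells, of the blood markers 0 lower and 1 higher, and of the fibroblast and endothelial markers 1 lower and 2 higher, and their part in the results was not tested.

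Nearly the whole set of nucleolar factors was lower in knockdown cells, by a moderate amount. Of 53 measured members 49 were called lower and 0 higher, which is 92.5%, where 18.6% of all genes were called lower and 21.4% higher. The list was proposed with earlier results of these data known, so that its direction is not independent evidence. All 53 differences were below 0, with a median of -0.33 (middle 50% of genes from -0.51 to -0.26), beside -0.0038 for all genes. The range ran from -0.79 for LYAR to -0.02 for TBL3, so that called members retained between 57.9% and 91.5% of the control signal. A fall of more than 0.5 was found in 14 members, and among all genes in 3.06%. Among the lowest 10% of all differences lay 40 members.

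The mean over the 53 members was -0.21, -0.20 and -0.18 in knockdown arrays, and 0.19, 0.19 and 0.17 in control arrays. No array of a group was near the other group, and the SD within a group was 0.02 and 0.01. The groups did not overlap in 50 members, all with knockdown lower, against 23.9% of all genes. The exceptions were TBL3, BYSL and PPAN.

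**Figure D1:**
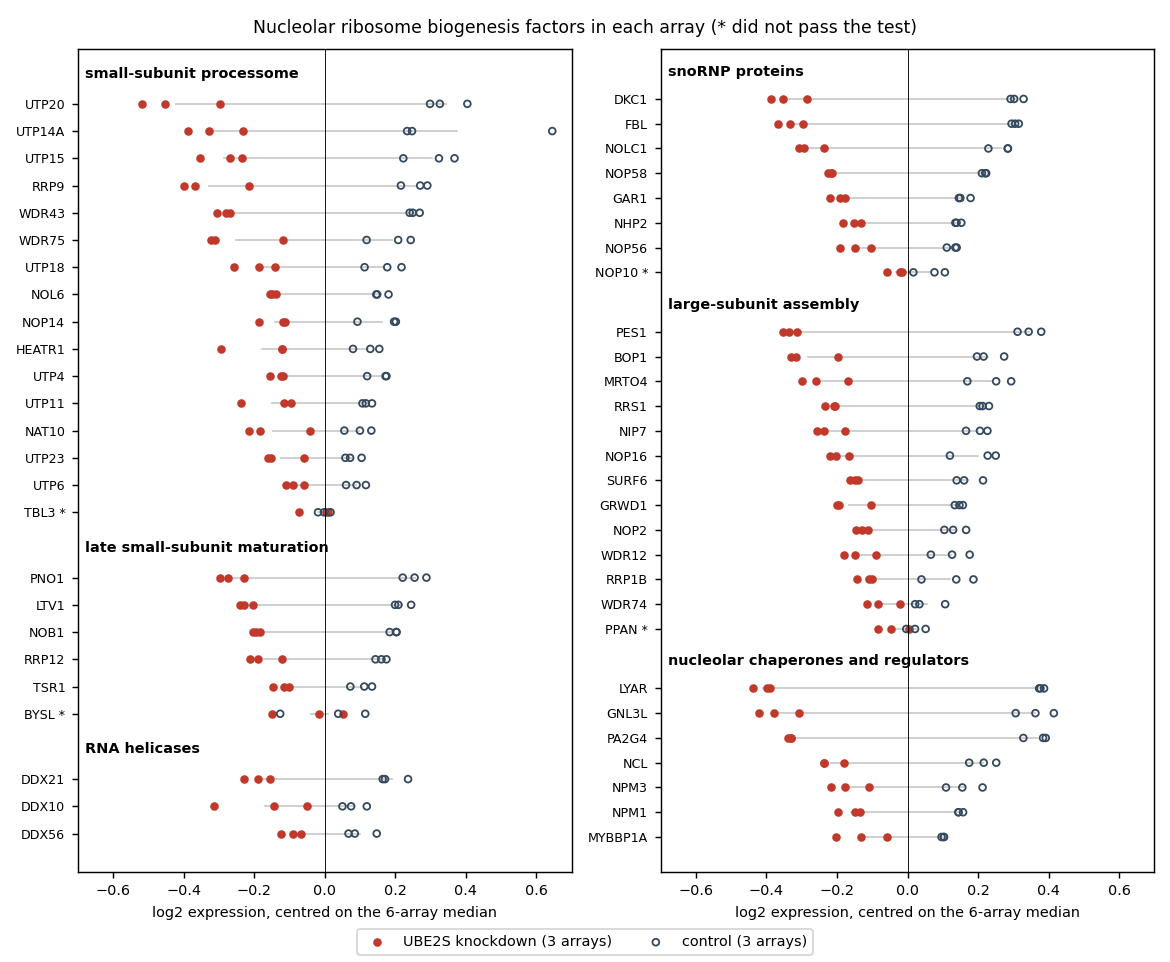
Each of 53 nucleolar factors in each array, by role. The horizontal axis is log2 expression centred on the 6-array median, filled red points are the 3 UBE2S knockdown arrays, open points the 3 control arrays, and grey lines join the group means. Knockdown arrays lie left of all control arrays in 50 genes, and asterisks mark the 4 that did not pass the test.

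Because MYC binds E-boxes and its own transcript fell, the start-site windows of the members were searched. MYC stood at -0.75, -0.47 and -0.53 in knockdown arrays, against 0.54, 0.58 and 0.47 in control arrays, a difference of -1.11 (SE 0.07, limma adjusted p = 1.15e-05). It was read by 1 probe set, of the middle signal class. The part of MYC in the fall of the members was not tested, and the letters of an E-box do not show which factor binds it. The transcript of MITF, one of the melanoma markers, was also lower, with probe sets at -0.66 and -0.78. Its part was not tested either. RefSeq windows of build GRCh38.p14, 250 bases before and 50 after the annotated start, were at hand for 46 measured members. The E-box, CACGTG, which reads the same on both strands, was present for 22 of them (47.8%), and for 10.8% of 14379 other measured genes. Counted by window, as a gene can have several, the shares were 42.3% of 52 and 8.2% of 20351. Of the 22 member windows with an E-box, 19 held one within 50 bases of the start, and 10 held one before the start. Of 1669 such windows of other measured genes, 644 (38.59%) held one within 50 bases and 1527 before the start. The following stretches of 120 bases upstream of a start show where the E-box (in capitals) lies in 5 called members and in NOP10, which did not pass the test. They are written 5′ to 3′ on the strand of the gene.
LYAR (chr4:4290023-4290142, minus strand): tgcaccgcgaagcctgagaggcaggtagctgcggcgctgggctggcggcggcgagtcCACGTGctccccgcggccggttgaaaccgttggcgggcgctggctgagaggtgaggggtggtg
UTP20 (chr12:101279985-101280104, plus strand): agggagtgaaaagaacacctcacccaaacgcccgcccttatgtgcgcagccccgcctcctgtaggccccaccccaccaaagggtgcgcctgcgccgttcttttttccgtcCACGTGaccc
UTP14A (chrX:129905914-129906033, plus strand): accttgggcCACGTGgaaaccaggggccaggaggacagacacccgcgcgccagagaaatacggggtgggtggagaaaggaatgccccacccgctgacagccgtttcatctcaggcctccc
DDX21 (chr10:68956527-68956646, plus strand): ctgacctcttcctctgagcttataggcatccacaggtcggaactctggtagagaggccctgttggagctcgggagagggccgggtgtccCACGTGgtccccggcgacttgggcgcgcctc
UTP18 (chr17:51260400-51260519, plus strand): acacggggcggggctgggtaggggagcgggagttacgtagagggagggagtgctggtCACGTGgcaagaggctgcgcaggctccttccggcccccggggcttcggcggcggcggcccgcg
NOP10 (chr15:34343137-34343256, minus strand): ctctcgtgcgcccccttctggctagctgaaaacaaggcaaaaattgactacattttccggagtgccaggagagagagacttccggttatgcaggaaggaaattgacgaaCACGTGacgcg

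In UTP20, DDX21 and NOP10 the stretch ends at the base before the annotated start, and the E-boxes begin at positions -10, -31 and -11, where -1 is the base before the start. Those of LYAR, UTP18 and UTP14A begin at positions -64, -89 and -241. NOP10 has a further E-box at -170 and UTP18 one that begins 4 bases past the start, and DDX21 and LYAR each have another annotated start whose window holds none. Members with an E-box had a median difference of -0.37 (22 genes, from -0.79 to -0.05), and members without one -0.30 (24 genes, from -0.73 to -0.02). The ranges overlap almost fully, and the difference between the medians was not tested. By role, 9 of 15 processome genes with a window had an E-box, 3 of 5 late small-subunit genes, 3 of 6 snoRNP genes, 4 of 10 large-subunit genes, 1 of 3 helicases and 2 of 7 chaperones and regulators.

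Other letters were also more frequent than in the other measured genes. CCGGAAG, the core of sites of ETS transcription factors, or its reverse complement CTTCCGG was present for 17 of the 46 members (36.96%) and for 16.84% of other measured genes. The palindromic site of the factor NRF1, GCGCA followed directly by TGCGC, was present for 5 members (10.87%), against 2.05%. No E-box in a member window overlapped either of these motifs. A match of letters does not show that a factor binds there.

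**Figure D2:**
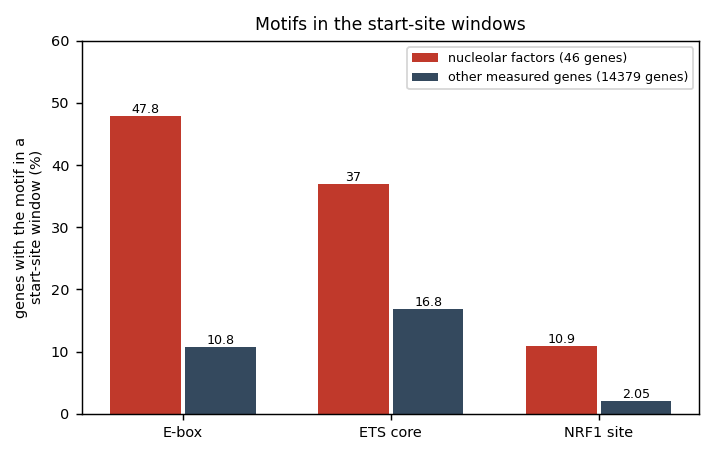
Share of genes with each motif in at least 1 start-site window (vertical axis, percent), for nucleolar factors (red) and other measured genes (dark). The E-box is present for 47.8% of the nucleolar factors and 10.8% of the other genes.

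The small-subunit processome is the particle that forms on the nascent precursor and releases the 18S part. Its transcripts were lower in 15 of 16 measured members, with 0 higher and a median of -0.31. UTP20, a very large scaffold protein, stood at -0.52, -0.45 and -0.30 in knockdown arrays, against 0.33, 0.30 and 0.40 in control arrays. The difference was -0.77 (SE 0.06, limma adjusted p = 3.22e-05). UTP14A, which activates a helicase that removes the U3 snoRNA, stood at -0.39, -0.33 and -0.23 in knockdown arrays and 0.64, 0.23 and 0.25 in control arrays. Control replicate 1 stood well above the other controls, and the difference was -0.69 (SE 0.11, limma adjusted p = 0.00111). UTP14A was read by a single probe set of the _x_at kind, which can cross-hybridise, and UTP14C is a retrogene copy of it, so the value is uncertain. UTP15, a subunit of the UtpA subcomplex, stood at -0.35, -0.27 and -0.23 in knockdown arrays, against 0.32, 0.37 and 0.22 in control arrays, a difference of -0.59 (SE 0.05, limma adjusted p = 4.97e-05).

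All 5 members that belong to UtpA, the subcomplex that binds the precursor first, were called lower. Besides UTP15 these were WDR43 (-0.54), WDR75 (-0.44), HEATR1 (-0.30) and UTP4 (-0.29). NOL11, a further UtpA protein outside the member list, stood at -0.06 and was not called (limma adjusted p = 0.203). Of the members in the UtpB subcomplex, UTP18 (-0.37) and UTP6 (-0.18) fell, whereas TBL3 did not pass the test. WDR3 (-0.52) and WDR36 (-0.38), UtpB proteins outside the member list, also fell. TBL3 stood at 0.00, -0.07 and 0.01 in knockdown arrays and 0.02, -0.02 and 0.00 in control arrays, and the interval of its difference ran from -0.11 to 0.07. RRP9, the U3-specific protein of the box C/D particle that base-pairs with the precursor, fell (-0.59, SE 0.05). TBL3, UTP20 and RRP9 were each read by 1 probe set, of the middle signal class. Smaller falls were seen in NOL6 (-0.31), NOP14 (-0.30), UTP11 (-0.27), NAT10 (-0.24), the enzyme that acetylates 18S RNA, and UTP23 (-0.20).

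Transcripts of factors for late maturation of the small subunit were lower in 5 of 6 members, with 0 higher and a median of -0.36. PNO1, the binding partner of the nuclease NOB1 on pre-18S RNA, stood at -0.30, -0.23 and -0.28 in knockdown arrays, against 0.22, 0.29 and 0.25 in control arrays (-0.52, SE 0.04, limma adjusted p = 2.01e-05). LTV1, which leaves the subunit in the cytoplasm, stood at -0.24, -0.23 and -0.20 in knockdown arrays, against 0.21, 0.24 and 0.20 in control arrays (-0.44, SE 0.03). NOB1 itself, which makes the last cut of the 18S end, stood at -0.19, -0.18 and -0.20 in knockdown arrays, against 0.18, 0.20 and 0.20 in control arrays (-0.39, SE 0.03). In each of these 3 genes the groups lay apart by several times the spread within a group. RRP12 (-0.33), which serves export, and TSR1 (-0.23) also fell. BYSL, an export and processing factor, stood at 0.05, -0.02 and -0.15 in knockdown arrays, against 0.04, -0.13 and 0.11 in control arrays, and the groups overlapped (-0.05, SE 0.07, limma adjusted p = 0.667). Its probe sets disagreed. The 1 in the brightest signal class gave -0.38 and was called lower, while the other 2 gave 0.12 and 0.13 and were not called.

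Transcripts of the snoRNP proteins were lower in 7 of 8 members, with 0 higher and a median of -0.40. The groups did not overlap in any of the 8. DKC1, the pseudouridine synthase of the box H/ACA particles and a partner of telomerase RNA, stood at -0.39, -0.35 and -0.28 in knockdown arrays, against 0.33, 0.29 and 0.30 in control arrays (-0.65, SE 0.04, limma adjusted p = 8.45e-06). FBL, the methyltransferase of the box C/D particles, stood at -0.37, -0.33 and -0.29 in knockdown arrays, against 0.29, 0.31 and 0.32 in control arrays (-0.64, SE 0.04, limma adjusted p = 5.98e-06). NOLC1, a chaperone of snoRNPs in the nucleolus and Cajal body, stood at -0.29, -0.31 and -0.24 in knockdown arrays, against 0.28, 0.28 and 0.23 in control arrays (-0.55, SE 0.04). The catalytic subunit had the largest fall among the measured core proteins of each particle class, and the differences between subunits were not tested. Of the other box C/D core proteins, NOP58 and NOP56 fell by 0.44 and 0.28 on the log2 scale. SNU13, a core protein outside the member list, stood at -0.27 and was also called lower. Of the other H/ACA core proteins, GAR1 (-0.35) and NHP2 (-0.30) fell. NOP10, the smallest, stood at -0.02, -0.06 and -0.02 in knockdown arrays, against 0.08, 0.11 and 0.02 in control arrays (-0.10, SE 0.04, limma adjusted p = 0.0779). It did not pass the test although its arrays did not overlap, and the interval from -0.19 to -0.01 includes small falls only.

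Transcripts of large-subunit assembly factors were lower in 12 of 13 members, with 0 higher and a median of -0.32. PES1, BOP1 and WDR12 form the PeBoW complex, which is needed for 28S and 5.8S maturation. PES1 stood at -0.35, -0.31 and -0.34 in knockdown arrays, against 0.38, 0.34 and 0.31 in control arrays (-0.68, SE 0.04, limma adjusted p = 4.59e-06). BOP1 stood at -0.33, -0.32 and -0.20 in knockdown arrays, against 0.27, 0.22 and 0.20 in control arrays (-0.51, SE 0.05). WDR12, the third subunit, fell less (-0.26, SE 0.04), and the difference among the 3 subunits was not tested. Of the 3 WDR12 probe sets, 2 in the brightest class gave -0.32 and -0.31, and a dimmer one gave -0.16 and was not called. PES1 and BOP1 were each read by 1 probe set. MRTO4, a placeholder for the ribosomal stalk protein P0, stood at -0.30, -0.26 and -0.17 in knockdown arrays, against 0.25, 0.29 and 0.17 in control arrays (-0.48, SE 0.05). RRS1 (-0.43), which helps to recruit the 5S particle, and NIP7 (-0.42) had falls of similar size.

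Further falls were found in NOP16 (-0.39), SURF6 (-0.32), GRWD1 (-0.31), a chaperone of ribosomal protein L3, NOP2 (-0.26), a methyltransferase of 28S RNA, and RRP1B (-0.24). WDR74 had a difference of -0.13 with a limma adjusted p of 0.0435. This call was lost without any of the arrays except knockdown replicate 3, with adjusted p between 0.0557 and 0.146, and its 3 probe sets ran from -0.23 to 0.04. PPAN, read by a single _x_at probe set, stood at -0.09, 0.00 and -0.05 in knockdown arrays, against 0.05, 0.00 and 0.02 in control arrays (-0.07, SE 0.04, limma adjusted p = 0.229), with an interval from -0.16 to 0.02.

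All 3 measured RNA helicases were called lower. DDX21, which senses RNA polymerase I transcription and unwinds snoRNAs, stood at -0.23, -0.19 and -0.16 in knockdown arrays, against 0.17, 0.24 and 0.16 in control arrays (-0.38, SE 0.04, limma adjusted p = 0.000123). DDX10, a putative helicase of the small-subunit pathway, stood at -0.32, -0.14 and -0.05 in knockdown arrays, against 0.05, 0.12 and 0.07 in control arrays (-0.25, SE 0.07, limma adjusted p = 0.0165). Its knockdown arrays were spread widely, and the call was lost without control replicate 2 (limma adjusted p = 0.0527). DDX56 stood at -0.12, -0.09 and -0.07 in knockdown arrays, against 0.15, 0.08 and 0.07 in control arrays (-0.19, SE 0.04).

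All 7 measured chaperones and regulators were called lower, with a median of -0.43. LYAR, a nucleolar zinc-finger protein of growing cells, had the largest fall of the whole set by the mean over probe sets. It stood at -0.40, -0.39 and -0.44 in knockdown arrays, against 0.39, 0.37 and 0.38 in control arrays (-0.79, SE 0.03, limma adjusted p = 1.73e-06), and 57.9% of the control signal remained. GNL3L, a nucleolar GTPase, stood at -0.42, -0.38 and -0.31 in knockdown arrays, against 0.36, 0.41 and 0.31 in control arrays (-0.73, SE 0.05). PA2G4, a growth regulator that binds the ribosome, stood at -0.33, -0.33 and -0.34 in knockdown arrays, against 0.38, 0.39 and 0.33 in control arrays (-0.70, SE 0.04). In these 3 genes the gap between the groups was several times the spread within either group.

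Transcripts of the abundant nucleolar proteins NCL, which binds nascent precursor RNA, and NPM1, a histone and ribosome chaperone, fell as well (-0.43, SE 0.04, and -0.31, SE 0.04). NPM3, a relative of NPM1, fell by 0.33 on the log2 scale, and MYBBP1A, a repressor of ribosomal RNA synthesis, by 0.23. NPM1 has many processed pseudogenes, and its 6 probe sets ran from -0.94 for the only plain _at probe set to -0.06, so the size of its fall is uncertain.

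**Figure D3:**
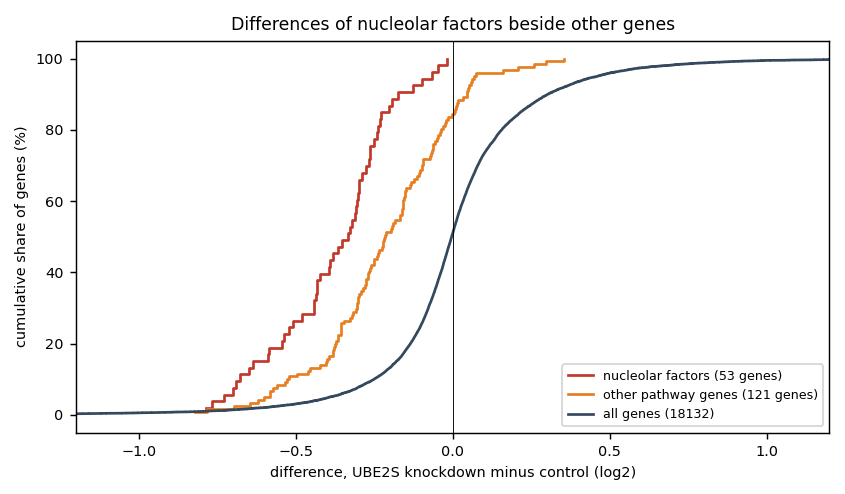
Cumulative share of genes (vertical axis, percent) by difference, knockdown minus control (horizontal axis, log2), for 53 nucleolar factors (red), 121 other ribosome biogenesis genes (orange) and all 18132 genes (dark). The median is -0.33 for the nucleolar factors, -0.22 for the other pathway genes and -0.0038 for all genes. The lists were chosen with earlier results of these data known.

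The probe sets of 1 gene were compared, since they read different parts or isoforms of a transcript. The 53 members were read by 121 probe sets, of which 102 were called lower and 0 higher in a fit over all 49293 probe sets that are not array controls. Of all probe sets, 17.4% were called lower and 19.5% higher. Among 36 members with at least 2 probe sets, all were called lower in 23 and some but not all in the other 13. HEATR1 had 2 bright probe sets at -0.62 and -0.45 and 2 dimmer ones at -0.07 and -0.06. RRP1B gave -0.44 and -0.03, and NOP16 gave -0.54, -0.54 and -0.10, with the smallest value in the dimmer class each time. NAT10, NOP14, NOL6, NPM1 and TSR1 had uncalled probe sets in the brightest class too. The brightest class held 63.6% of member probe sets and 25.7% of all probe sets. With this class alone, 44 of 45 members were called lower, as were 34.3% of the genes that remained, and the uncalled one was PPAN.

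**Figure D4:**
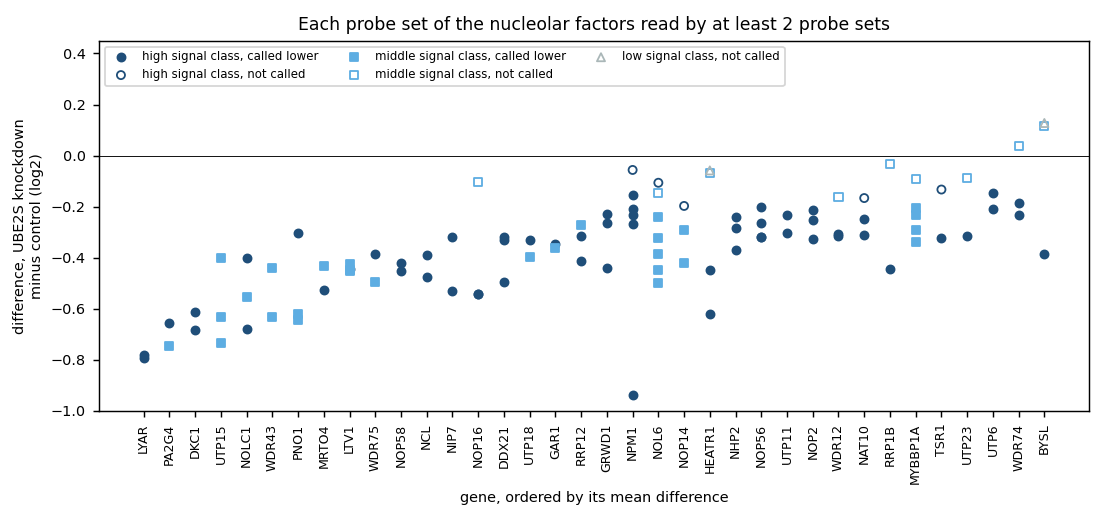
Difference of each probe set, knockdown minus control (vertical axis, log2), for the 36 nucleolar factors with at least 2 probe sets, ordered by the gene mean. Shape and colour give the signal class, and open symbols were not called. The 3 values above 0 belong to BYSL and WDR74 and were not called.

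The other genes of the pathway were less uniformly lowered. As the members and lists were chosen with earlier results of these data known, the choice alone could give this contrast. Of 121 measured genes from a list of 123, 81 were called lower and 5 higher, with a median of -0.22. For this list and its parts below, the shares of all genes were 18.6% lower and 21.4% higher. Factors of the small subunit outside the members were lower in 23 of 36 cases and higher in 2. DCAF13 (-0.60, SE 0.04), WDR46 (-0.57, SE 0.05) and WDR3 (-0.52, SE 0.05), all processome components, had the largest falls, and RRP36 was higher (0.26, SE 0.04), as was NOP9 (0.16, SE 0.04). Relative to the hybridization spike-ins NOP9 was at -0.01 and RRP36 at 0.09, and neither was called. The call of NOP9 was also lost relative to the poly-A spike-ins (limma adjusted p = 0.306), with plain _at probe sets only (0.191), and without knockdown replicate 2 (0.0778), knockdown replicate 3 (0.0630) or control replicate 3 (0.0671). Its 3 probe sets ran from -0.02 to 0.30.

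Large-subunit factors outside the members were lower in 33 of 45 cases and higher in 2. RRP15 (-0.82, SE 0.10), TEX10 (-0.78, SE 0.05) and RSL1D1 (-0.65, SE 0.04) fell most. The 2 that rose were SBDS and EFL1. SBDS, the gene mutated in Shwachman-Diamond syndrome, stood at 0.15, 0.17 and 0.24 in knockdown arrays, against -0.17, -0.18 and -0.15 in control arrays (0.35, SE 0.04, limma adjusted p = 0.000146). EFL1, the GTPase that works with SBDS, stood at 0.15, 0.10 and 0.26 in knockdown arrays, against -0.16, -0.10 and -0.11 in control arrays (0.30, SE 0.05, limma adjusted p = 0.00142). EIF6, the anti-association factor that both release from the large subunit, stood at -0.30, -0.27 and -0.30 in knockdown arrays, against 0.29, 0.28 and 0.24 in control arrays (-0.56, SE 0.04, limma adjusted p = 9.93e-06). EIF6 was chosen after its values were seen. SBDS and EFL1 were each read by 1 probe set, and SBDS has a near-identical pseudogene. Both were still called higher relative to the hybridization spike-ins (0.19 and 0.13) and the poly-A spike-ins (0.26 and 0.20).

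The RNA exosome and its cofactors, which trim the precursor, were lower in 9 of 13 cases and higher in 0, led by EXOSC5 (-0.53, SE 0.06), the nuclease DIS3 (-0.53, SE 0.05) and EXOSC3 (-0.37, SE 0.05). Of 12 genes listed with the snoRNP assembly factors 7 were lower and 0 higher. The ATPase RUVBL1 (-0.41, SE 0.03), the box C/D core protein SNU13 (-0.27, SE 0.04) and NUFIP1 (-0.25, SE 0.03) fell most. Of 15 genes of the RNA polymerase I machinery 9 were lower and 1 higher, with a median of -0.14. The subunit POLR1E fell most (-0.70, SE 0.05), then TAF1A (-0.36, SE 0.04) and POLR1B (-0.33, SE 0.04). UBTF, which binds ribosomal DNA, was called higher (0.21, SE 0.04), but its probe sets disagreed, and the 1 in the brightest class gave -0.22. Cytosolic ribosomal proteins were lower in 48 of 64 cases and higher in 0 (median -0.18), and mitochondrial ribosomal proteins, which are assembled in another compartment, were lower in 38 of 74 and higher in 7 (median -0.14). Among all genes 18.6% were called lower and 21.4% higher. The differences between these lists and the nucleolar factors were not tested.

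The array-wide level rests on the deposited normalization. Hybridization spike-in transcripts were 0.168 higher and poly-A spike-ins 0.0978 higher in knockdown arrays, both without overlap. Centring on the hybridization spike-ins moved the median of all genes to -0.17, and centring on the poly-A spike-ins moved it to -0.10. The member median then stood at -0.50 and -0.43. Centring shifts the differences of all genes by the same amount. The distance of -0.33 to the median of all genes is therefore fixed by the method and is no further result. In either case 52 of 53 members were called lower, all but BYSL, where 50.7% and 34.7% of all genes were. As measures of RNA quality, the value of the 3' minus the 5' control probe set differed by 0.191 for ACTB, with all knockdown arrays higher, and by 0.0226 for GAPDH, with overlap. The part of the RNA measure in the result was not tested.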

How the data were processed

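Arrays of 6 A375 samples were analysed, with RNA taken up in Trizol and labelled as biotinylated cRNA for Affymetrix arrays, per the labels' protocols. The values deposited by the authors are log2 expression. The submitters' processing notes name limma, RMA and affy without saying what each was used for. The base 2 is that of RMA's usual output and is not stated in the table. That each probe set is centred on its 6-array median was found from the values (largest absolute median 4.85e-07). Of 49395 probe sets 102 are array controls, 44988 had 1 gene symbol, 1832 several and 2473 none. By gene number 44961 matched a gene table of GRCh38.p14, and 0 symbols changed.

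Gene means of 18132 genes were fitted with limma 3.58.1 (lmFit, eBayes; R 4.3.3), all 6 arrays, no block, no filter, two-sided tests and 95% intervals. The code was tested on simulated data first. The number of arrays limits the precision. Signal classes (12648 high, 27350 middle and 9295 low probe sets) come from the rounding step of single-precision values, which depends on their size before centring. No array copied another, since same-group arrays had at most 140 equal values. Same-numbered arrays correlated at r from -0.105 to -0.0165 after group means were removed, which gave no sign that the numbers pair them. With 3 arrays per group this cannot show whether they were prepared together. The labels spell the knocked-down gene in 2 ways, taken here as UBE2S.

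The members and lists were chosen with earlier results of these data known. Genes named are all members, UBE2S, MYC and, of the other pathway lists, the 3 largest called differences per direction without overlap. Outside this rule, EIF6, NOL11, WDR36 and EXOSC7 were named after their values were seen, and markers are named for the check of cell type. MITF is also named beside MYC, after its values were seen. Per-array values are given for the 3 largest differences of each role and for uncalled members. Alternatives were other choices of probe sets, scalings, variance models, a stricter threshold, a replicate block and leaving out each array.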

Additional observations from a re-analysis of the deposited data

Results flagged for a closer look

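Control probe sets for ribosomal RNA, which the gene comparison does not use, had all knockdown values above all control values at the middle and 5' positions. The 28S 5' probe set stood at 0.28, 0.25 and 0.31 in knockdown arrays, against -0.25, -0.27 and -0.34 in control arrays, a difference of 0.56. The 28S middle probe set differed by 0.25, the 18S 5' probe set by 0.26 and the 18S middle probe set by 0.17. The 3' probe sets ran the other way without overlap, at -0.17 for 28S and -0.06 for 18S. As the positions of each RNA ran in opposite directions, these probe sets give no amount of ribosomal RNA. Their relation to the ACTB 3' minus 5' difference of 0.191 was not tested. The differences themselves were not tested, and neither was their part in the fall of the nucleolar factors.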

How the results depend on the processing

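No setting tried called any nucleolar factor higher. When each array was left out, between 47 and 49 of 53 members were called lower. Of all genes, 15.8% to 17.1% were then called lower and 19% to 19.7% higher. The median difference of the members then ran from -0.36 to -0.33. The median was -0.44 with the most variable probe set per gene and -0.35 without the low signal class. With plain _at probe sets only, 22 of 27 members were lower (median -0.36), as were 989 of 8354 genes, with 916 higher, and 23 of 59 other pathway genes, with 2 higher. WDR74 (0.036) and EXOSC7 (0.042) then changed sign, and UBE2S had no value. In the high class alone 2227 of 6486 genes were lower and 2218 higher, and UBTF changed sign (-0.22). Hybridization spike-in centring gave 9196 genes lower and 1764 higher, a member median of -0.50, 2 other pathway genes higher and a change of sign for NOP9 (-0.0089). Poly-A centring gave 6297 lower, 2486 higher and a median of -0.43. With a replicate block 48 members were lower, 3069 genes lower and 3615 higher, and the members' only lost call was WDR74 (limma adjusted p = 0.0818). At an adjusted p of 0.01, 47 members were lower, as were 13.1% of all genes, with 16.2% higher. The arrays have no count depth, and with centred values signal over background is unknown, so a small difference in a dim probe set cannot be told from a lack of signal.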
